A study of Mus musculus with 20 samples.

Results

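Described here are 39 genes of ribosome biogenesis and the nucleolus, a set often counted among the targets of Myc, in mouse liver on 2 diets, with and without exercise, and in liver tumours. The members were chosen by name from a list of nucleolar and ribosome assembly genes, with earlier results of these data known. They were matched to the gene identifiers of the count files. All 39 were found among 55359 identifiers, and all 39 passed the filter on low counts that kept 14428 genes for testing. By role they are 3 subunits of RNA polymerase I, 8 proteins of the small nucleolar ribonucleoprotein particles (snoRNPs), 10 factors of small-subunit assembly, 14 factors of large-subunit assembly and 4 abundant or regulatory nucleolar proteins.

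Ribosomes are assembled in the nucleolus. RNA polymerase I transcribes the rRNA precursor, snoRNPs guide its chemical modification, and assembly factors cut and fold it while ribosomal proteins are added to the small and the large subunit. Myc, a transcription factor that drives growth, is known to bind and activate many of these genes through the E-box sequence, and hepatocytes, which export large amounts of protein, depend on a steady supply of ribosomes.

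Polyadenylated RNA was sequenced from frozen liver of wild-type male mice, 35 weeks old, of a strain that the labels spell C56BL/6. The protocols describe painting the backs of pups with 7,12-dimethylbenz(a)anthracene (DMBA, a carcinogen; 50 µL at 0.5%) on postnatal day 4 to 5, before feeding on a normal diet (12 kcal% fat) or a high-fat diet (60 kcal% fat), so the normal-diet livers were taken as those of DMBA-treated mice too. There are 5 groups of 4 libraries: livers of non-exercised normal-diet mice, non-tumour tissue and tumours of non-exercised high-fat mice, and non-tumour tissue and tumours of high-fat mice that were assigned to treadmill exercise at the age of 20 weeks. Training started at 10 m/min and took 5 weeks, followed by 10 weeks of runs of 20 min at 18 m/min, 5 times weekly, and high-fat mice of both arms were killed at most 2 h after the last run. No exercised mice on the normal diet are among them. In the titles the mice are numbered within a group, and a tumour and a non-tumour sample with the same number in the same arm were taken to come from the same animal. No label says more about how samples relate, so p-values reflect sample-to-sample spread only. Because the tissue is a mixture, fewer cells of a type and less RNA per cell cannot be told apart.

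Libraries held 16471378 to 20271948 counts, and the members held 63 to 4082 counts per gene and library. Together the 39 genes took 0.0939% to 0.126% of all counts. Normal-diet library 2 differed more from the other 3 of its group than they did among themselves, and had the highest Myc level of all 20 libraries. Tumour library 3 stood apart in both arms on the first principal component of all genes tested (32.7 against 67.3 to 105, and 24.3 against 49.4 to 84.8), on the side of the non-tumour libraries, and exercised non-tumour library 2 lay at -6.54 against -58.4 to -42.7. Without tumour library 3 the counts of members called in tumours, given below, were the same in both arms (6 higher and 2 lower, 9 higher and 1 lower), and without exercised non-tumour library 2 they were 7 higher and 2 lower. Liver identity was clear in every library, with albumin at 4.06% to 15.9% of counts, and no gene of the hepatocyte marker list was at 0 in all libraries of a group. Levels below are given as CPM, the counts of a gene scaled to a library size common to all libraries after TMM factors. The summed CPM of 25 genes of G2 phase and mitosis moved with the groups. Normal-diet livers had 16.3 to 17.1, non-tumour tissue of the high-fat diet 29.0 to 93.6 without exercise (32.1 to 94.4 with it), and tumours 263 to 520 (137 to 285). None of the 25 was at 0 in all libraries of a group. The part of dividing cells in the results below was not tested.

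Compared per length, as CPM per kilobase of exon, the members' levels covered a wide range. Npm1, a histone chaperone and carrier of pre-ribosomes, stood highest at 37.9 CPM per kilobase over the 20 libraries, above 92.6% of the genes tested. Nhp2, a core protein of box H/ACA snoRNPs, followed at 19.3, and Ncl (nucleolin, a binder of pre-rRNA) at 19.1. The lowest level per length was that of Rrp1b, a large-subunit factor, at 0.757 CPM per kilobase, followed by Wdr12 at 1.29 and Polr1a, the catalytic subunit of RNA polymerase I, at 1.65. Npm1 has near-identical copies elsewhere in the genome, so its counts are uncertain. The length joins all annotated exons of a gene (10188 bases for Ncl, 2665 for Npm1 and 11955 for Wdr12). This order therefore depends on the annotation, and by CPM alone Ncl stood above Npm1.

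The members varied together for the most part. Over the 20 libraries the correlation of each gene's log2 CPM with the mean of the other 38 had a median of 0.72 and ranged from -0.27 to 0.91. With group means removed the median was 0.59, and 28 of 39 genes were above 0.5. Wdr43, a small-subunit processome factor, was most like the rest (0.91), followed by Ddx21, an RNA helicase of the nucleolus (0.88). Utp20, another processome factor (-0.27), and Nhp2 (-0.23) had the lowest values. With group means removed Utp20 was at 0.38 and Nhp2 at -0.13. These correlations are descriptions over libraries that share a scaling factor and a group structure. They were not set against those of other genes, so they do not show that the members vary together more than others.

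**Figure D1:**
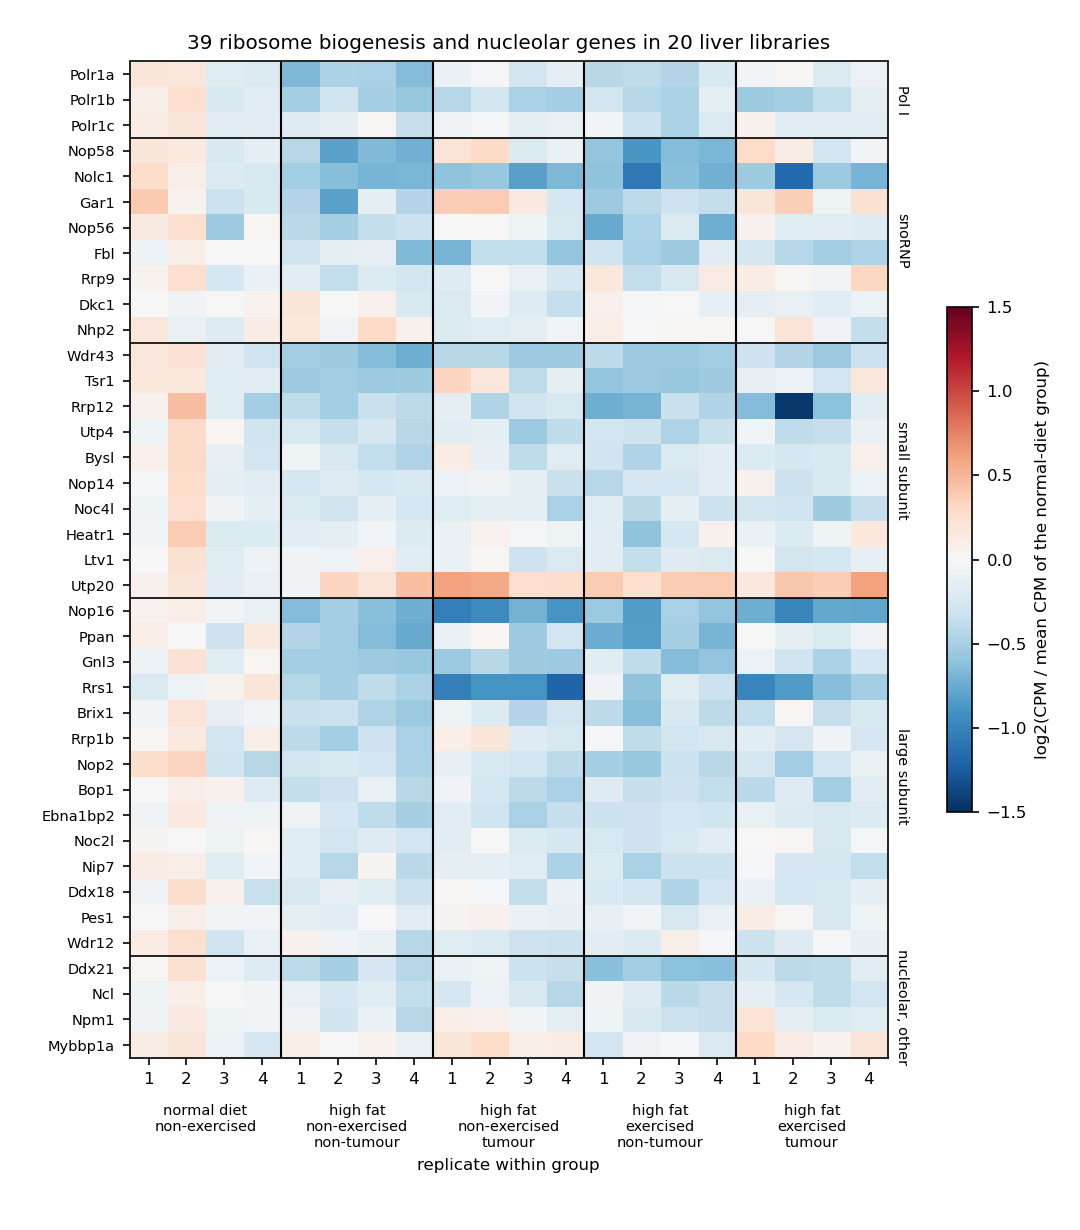
Each row is 1 of the 39 genes, ordered by role and then by diet effect, and each column is 1 of the 20 libraries in its group. Colour is the log2 ratio of the library's CPM to the mean CPM of the 4 normal-diet libraries (blue lower, red higher); the blue block of most genes in the 4 non-exercised non-tumour high-fat libraries and the return of Nop58, Tsr1 and Polr1a towards white in tumours can be seen.

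Promoter sequences of the members were searched for short motifs around their starts. RefSeq windows (build GRCm38.p6, not the GRCm39 of the count files) of 250 bases before and 50 bases after a start were found for 34 of the 39 members, 38 windows in all; Bop1, Fbl, Npm1, Rrp12 and Rrs1 have none in the table used. The E-box CACGTG, which reads the same on both strands, was present in the 250 bases before the start of 1 of 38 member windows, against 6.02% of 32851 windows of all genes. In the full windows of 300 bases it was present in 8 of 38 (21.1%), against 7.15% of all, with 7 of the 8 sites lying after the start. The ETS-type motif CCGGAAG (either strand) was present upstream in 10 of 38 (26.3%), against 6.91%. The E-box variant CACGCG (either strand) was in 6 of 38 (15.8%), against 7.62%. Median GC content of the 250 bases was 59.2% in members and 52.4% in all windows. A match describes letters in a window and not a bound site.

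The 8 E-boxes are shown on the gene's strand with up to 12 bases on each side and the E-box in capitals, since they are the only places where the members' windows hold the classical Myc recognition letters. Pes1, a large-subunit factor, has its E-box 3 bases after the start, and Nop2, a large-subunit rRNA methyltransferase, 60 bases before it. In all, the 30 bases after the start were found in a transcript of the same gene (GENCODE M21) for 28 of the 38 windows. Ltv1, Mybbp1a, Nop2 and Utp20 are among those not found. Read on the other strand, the last 30 bases of a window were found for 0. Of the 8 genes Tsr1 and Wdr43 are among the members that fell on the high-fat diet. Of all 34 members with a window 14 fell.
Pes1 (chr11:3963965-3963994, plus strand): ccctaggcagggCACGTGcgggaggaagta
Utp4 (chr8:106893643-106893672, plus strand): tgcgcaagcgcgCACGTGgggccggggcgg
Wdr43 (chr17:71616220-71616249, plus strand): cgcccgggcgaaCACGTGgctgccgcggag
Tsr1 (chr11:74898092-74898121, plus strand): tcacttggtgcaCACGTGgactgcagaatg
Ltv1 (chr10:13193092-13193121, minus strand): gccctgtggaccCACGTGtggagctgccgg
Utp20 (chr10:88826765-88826789, minus strand): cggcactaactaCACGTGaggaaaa
Mybbp1a (chr11:72441355-72441376, plus strand): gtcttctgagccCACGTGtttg
Nop2 (chr6:125131811-125131840, plus strand): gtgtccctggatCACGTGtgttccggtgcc

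For comparison, the 250 bases upstream of Nop58, which had the largest fold change among members on the high-fat diet (below), and of Nop16, which had the lowest p, hold none of these 3 motifs on either strand and so no capitals. Their GC content is 41.2% and 54.8%.
Nop58 (chr1:59684756-59685005, plus strand): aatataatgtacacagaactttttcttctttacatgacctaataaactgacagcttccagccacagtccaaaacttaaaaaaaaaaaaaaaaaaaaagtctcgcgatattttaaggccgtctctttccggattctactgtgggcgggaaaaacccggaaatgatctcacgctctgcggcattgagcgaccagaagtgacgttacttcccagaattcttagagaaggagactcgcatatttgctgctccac
Nop16 (chr13:54590075-54590324, minus strand): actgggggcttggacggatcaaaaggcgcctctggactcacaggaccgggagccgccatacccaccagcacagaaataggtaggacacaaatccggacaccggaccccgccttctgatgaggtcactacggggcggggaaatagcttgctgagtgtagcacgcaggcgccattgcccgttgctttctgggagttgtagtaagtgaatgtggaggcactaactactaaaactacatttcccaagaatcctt

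The first comparison sets the high-fat against the normal diet in the absence of exercise and outside tumours. The high-fat pieces were taken to come from tumour-bearing mice, while no tumour is named for the normal-diet mice. A time of killing after the last run is given for high-fat mice only. Diet cannot be told apart from these differences. Of 39 members 16 fell and 0 rose in non-tumour liver of high-fat mice, by edgeR's quasi-likelihood test with Benjamini-Hochberg adjustment over all genes tested. Among all genes 11.9% were called lower and 14% higher. The members' median log2 fold change was -0.29, against 0.01 for all genes, and 35 of 39 estimates were below 0, with a range from -0.65 to 0.24. Factors of the large subunit made up most of the calls, with 9 of 14 lower, followed by 2 of 3 polymerase I subunits, 2 of 8 snoRNP proteins, 2 of 10 small-subunit factors and 1 of 4 other nucleolar proteins. In 19 members all 4 high-fat libraries lay below all 4 normal-diet libraries, which was so for 16.3% of all genes, and in 0 members did they lie above (16.8% of all genes).

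DESeq2 called 19 members lower and 0 higher (14.3% and 15.2% of all genes). The size of the drop depends on the scaling. With library totals in place of TMM factors the median of all genes moved up by 0.23 on the log2 scale. Under them 8 members were called lower and 2 higher (Utp20 and Nhp2), with a member median of -0.06. Of all 14428 genes 496 were then lower and 3799 higher. Upper-quartile factors gave 12 lower and 1 higher (Utp20), against 1140 lower and 2513 higher of all genes. They moved the share of all calls that were higher from 54.1% to 68.8%. Library totals moved that share to 88.5%. The 8 calls under library totals were all among the 16. Of the 16 calls, 13 were made in each of the 8 fits that left out 1 library; the other calls, Bop1, Ebna1bp2 and Rrp1b, were lost in 6, 3 and 4 of them, which included the fits without normal-diet library 2 and without high-fat library 4. Without normal-diet library 2 the count was 13 lower and the median -0.22.

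Transcripts of 2 of the 3 listed RNA polymerase I subunits were lower. Polr1a stood at 25.7, 25.5, 20.0 and 19.5 CPM in normal-diet libraries 1 to 4 and at 14.2, 16.4, 16.2 and 14.5 in the high-fat libraries, a log2 fold change of -0.56 ± 0.10 (SE; adjusted p = 0.000781). Every high-fat value was below the lowest normal-diet value. Polr1b, the second large subunit, went from 18.5, 20.7, 14.8 and 15.5 CPM to 12.3, 14.2, 12.3 and 11.7, again without overlap (-0.46 ± 0.12, adjusted p = 0.0086). Polr1c, a subunit that RNA polymerase III shares, was estimated at -0.16 and did not pass.

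Among snoRNP proteins Nop58, a core protein of the box C/D particles that methylate rRNA, fell most. Its libraries stood at 40.6, 39.8, 30.6 and 32.7 CPM on the normal diet and at 26.7, 20.6, 22.6 and 21.8 on the high-fat diet, a drop of 36.1% (log2 -0.65 ± 0.13, adjusted p = 0.00242). The groups did not overlap. Nolc1, a chaperone that brings snoRNPs to the nucleolus, fell by 35.4% (-0.63, adjusted p = 0.00333). The other box C/D core proteins had lower estimates that did not pass. Fbl (fibrillarin, the methyltransferase) was at 12.6, 14.2, 13.3 and 13.5 CPM against 10.9, 12.2, 12.3 and 8.47, and Nop56 at 16.1, 17.4, 10.1 and 14.9 against 11.1, 10.4, 11.5 and 11.8. Fbl values did not overlap, at -0.29 ± 0.12 (adjusted p = 0.0807), while 1 normal-diet value of Nop56, that of library 3, lay below all 4 high-fat values (-0.39 ± 0.14, adjusted p = 0.0508). Without that library Nop56 passed (adjusted p = 0.00524). In the box H/ACA particles, which carry out pseudouridylation, Dkc1, the pseudouridine synthase, was at 0.01 and Nhp2 at 0.13. Gar1, the third member in these particles, was lower in estimate, at -0.44 ± 0.18 with 3 of 4 high-fat values below the normal-diet range. None of these H/ACA proteins passed (adjusted p = 0.941, 0.387 and 0.0754).

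In the small-subunit processome Wdr43 stood at 36.6, 37.9, 29.1 and 26.4 CPM on the normal diet and at 22.7, 22.5, 20.7 and 19.6 on the high-fat diet (-0.61 ± 0.10, adjusted p = 0.000552). All high-fat values were below the normal-diet range. Tsr1, a late factor of small-subunit maturation, was the other call of this role, with a mean of 17.6 ± 0.234 CPM (SD, n = 4) against 25.6 ± 3.39 and a drop of 31.2% (adjusted p = 0.00543). Utp20 had the highest estimate of all members, 0.24, and did not pass.

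Large-subunit factors gave the lowest p of all. Nop16 was at 36.1, 37.3, 33.8 and 32.1 CPM on the normal diet and at 22.1, 24.6, 22.6 and 21 on the high-fat diet (-0.63 ± 0.09, adjusted p = 0.000205). The gap between the groups was wider than the range within either. Gnl3 (nucleostemin, a nucleolar GTPase) went from 38.8, 47.7, 36.2 and 42.0 CPM to 28.8, 28.7, 28.2 and 27.8 (-0.54 ± 0.10, adjusted p = 0.00145). Its high-fat values were almost level and all below the normal-diet range. Ppan went from 15.7, 14.8, 11.9 and 16.3 CPM to 10.8, 10.2, 9.33 and 8.71 (-0.59 ± 0.12, adjusted p = 0.00268), also without overlap. Bop1, which with Pes1 and Wdr12 forms the PeBoW complex, was at 30.9, 33, 32.2 and 27.0 CPM against 24.0, 24.8, 28.5 and 23.1 (-0.29 ± 0.10, adjusted p = 0.041). High-fat library 3 lay above normal-diet library 4, so this call is among the weakest. Its partners Pes1 and Wdr12 did not pass (both at -0.11). Rrs1, Brix1, Rrp1b, Ebna1bp2 and Noc2l made up the remaining calls, with drops of 26.4%, 25.1%, 25.3%, 18.1% and 14.9%.

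Of the abundant nucleolar proteins the helicase Ddx21 fell by 23.8% (-0.39, adjusted p = 0.00481). Ncl was at 213, 237, 222 and 216 CPM on the normal diet and at 205, 186, 196 and 172 on the high-fat diet, without overlap, but did not pass (-0.23 ± 0.09, adjusted p = 0.0811); DESeq2 gave an adjusted p of 0.0389. Npm1 was at 104, 119, 103 and 105 CPM against 104, 87.6, 101 and 81.1, with 3 of 4 high-fat values below the normal-diet range (-0.21 ± 0.10, adjusted p = 0.151). Its estimate turned to 0.02 with library totals. Mybbp1a, a Myb-binding protein and regulator of rRNA synthesis, was at 0.01.

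**Figure D2:**
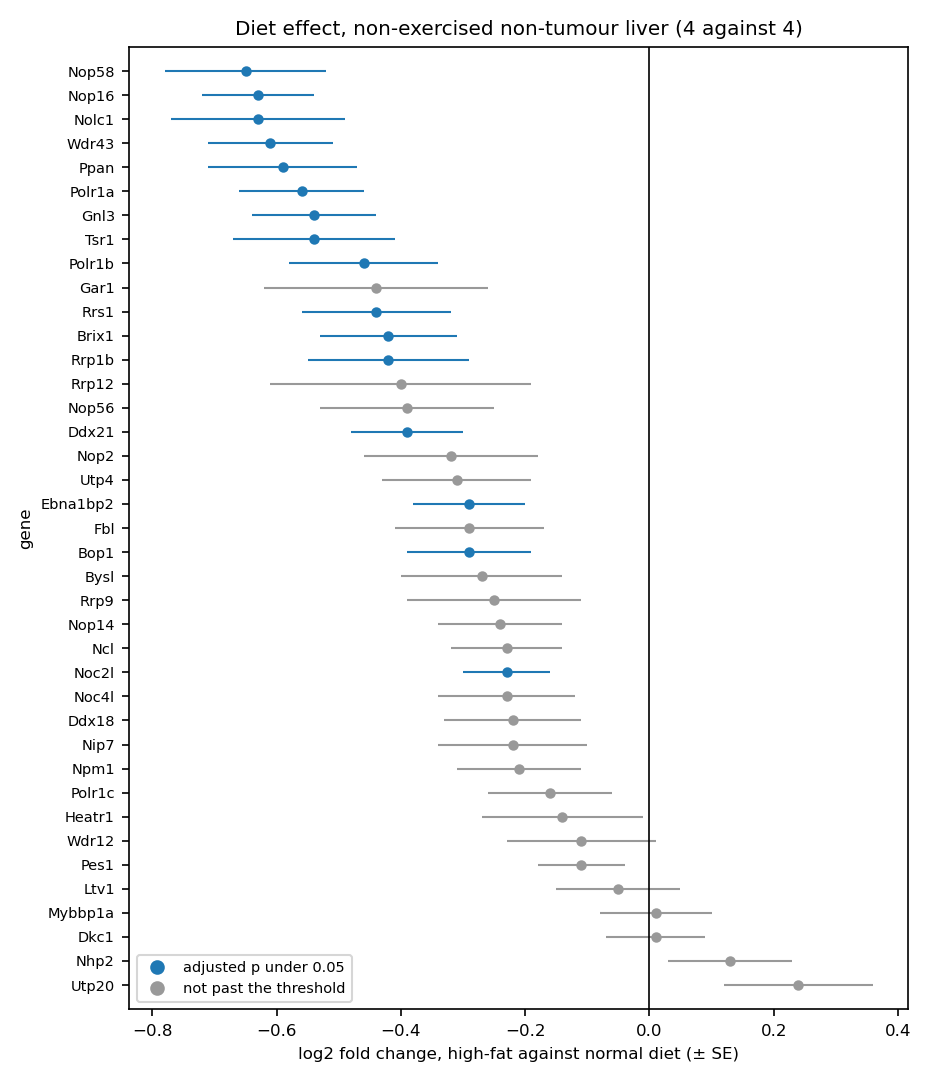
Log2 fold change of each of the 39 genes in non-exercised non-tumour liver, high-fat against normal diet, with its SE as the bar (4 libraries against 4, edgeR). Blue points passed an adjusted p of 0.05 and grey points did not; all 16 that passed lie left of 0, from -0.65 (Nop58) to -0.23 (Noc2l).

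Other genes of the same pathway also fell in part, and here too the counts depended on the scaling. So did those of all genes, with 1715 lower and 2025 higher under TMM factors. Upper-quartile factors gave 1140 lower and 2513 higher of all genes, and library totals 496 lower and 3799 higher. Of 17 further genes of RNA polymerase I transcription 4 fell and 0 rose, with 3 lower and 2 higher under library totals. Among them were Rrn3, the initiation factor that recruits the polymerase (-0.66 ± 0.08, adjusted p = 7.59e-05), and Taf1d of the promoter-binding factor SL1 (-0.88 ± 0.14, adjusted p = 0.000464). Of 12 further snoRNP genes 0 passed by edgeR (0 higher and 1 lower at an unadjusted p under 0.05; 1 lower by DESeq2; 1 higher under library totals), with Nufip1 nearest at -0.34 (adjusted p = 0.0582).

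Of 47 further small-subunit factors 15 fell and 1 rose, against 7 and 2 with upper-quartile factors and 1 and 4 with library totals. Riok2, a kinase of late small-subunit maturation, was at -0.46 and Rcl1 at -0.81. Of 45 further large-subunit factors 16 fell and 0 rose, against 10 and 1 with upper-quartile factors and 1 and 3 with library totals. Gtpbp4, a GTPase of large-subunit assembly, was at 59.7 ± 0.993 CPM on the normal and 31 ± 0.583 on the high-fat diet (SD, n = 4; -0.95 ± 0.12, adjusted p = 7.97e-05). Of 78 ribosomal protein genes 30 fell and 0 rose, with a median of -0.32, but 9 fell with upper-quartile factors and 1 with library totals. Many ribosomal protein genes have processed copies, so their counts are uncertain.

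Myc itself was lower on the high-fat diet. Its CPM was 15.5, 54.6, 21.8 and 29.0 in the normal-diet libraries and 2.97, 2.03, 7.4 and 7.21 in the high-fat libraries (-2.61 ± 0.47, adjusted p = 0.00103). The spread among normal-diet mice was wide. Library 2, with the highest Myc, also had the highest mean log2 CPM of the 39 members (4.70). Library 1, with the lowest Myc of the group, had the next highest mean (4.58), above libraries 3 and 4 (4.39 and 4.41). A link between Myc and the members was not tested. The paralogs of Myc moved the other way: Mycn rose by 2.54 and Mycl by 0.97 on the log2 scale (adjusted p = 0.00276 and 0.003), from group means of 0.488 and 5.57 CPM to 2.89 and 10.9. Of 27 tested Myc targets outside the nucleolus 8 fell, such as the purine enzymes Paics (-0.74) and Gart (-0.40) and the polyamine enzyme Odc1 (-0.59), and 1 rose (Mthfd1l, a mitochondrial folate enzyme, 2.61), against 1 and 3 with library totals. Of the 25 genes of G2 phase and mitosis 21 rose and 0 fell.

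**Figure D3:**
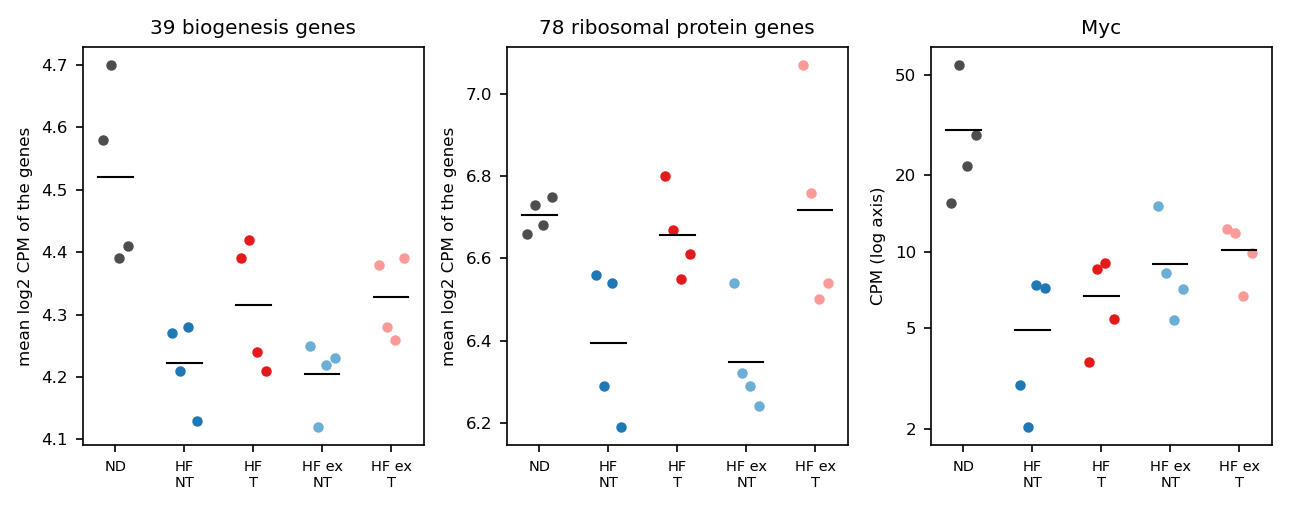
Each point is 1 library (ND, normal diet; HF, high-fat diet; NT, non-tumour; T, tumour; ex, exercised) and each line the group mean. The left and middle panels give the mean log2 CPM of the 39 members and of 78 ribosomal protein genes, and the right panel the CPM of Myc on a log axis; all 4 normal-diet libraries lie above all 4 non-exercised non-tumour high-fat libraries in each panel.

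Marker genes of other cells differed between these diet groups too. The summed level of 13 macrophage markers was 213 to 305 CPM on the normal diet and 406 to 539 on the high-fat diet, and that of 9 stellate cell markers 205 to 294 and 320 to 599. The 10 hepatocyte markers together ranged from 89484 to 103607 CPM and from 62568 to 89787. Called were 9 of the 13 macrophage and 5 of the 9 stellate cell markers, each higher, and 6 of the 10 hepatocyte markers, each lower. None of these markers was at 0 in all libraries of a group. Their part in the members' difference was not tested.

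Exercise was compared within the high-fat diet, separately in non-tumour and in tumour pieces. In non-tumour liver 0 of 39 members passed in either direction by edgeR, where 0.0139% of all genes were called higher and 0% lower. At an unadjusted p under 0.05 there were 0 higher and 1 lower, and DESeq2 called 0 in either direction (0.631% of all genes higher and 0.111% lower). Estimates ran from -0.21 to 0.20 with a median of -0.03 (all genes -0.01), and the SE of a member was 0.07 to 0.21. Ddx21 had the lowest p: it was at 43.4, 40.6, 48.1 and 42.5 CPM without and at 36.9, 40, 37.3 and 37.0 CPM with exercise (-0.21 ± 0.09, adjusted p = 0.568). Its groups did not overlap, although exercised library 2 came close to non-exercised library 2. Polr1a was next, at 14.2, 16.4, 16.2 and 14.5 CPM without and 17, 17.5, 16.8 and 19.3 with exercise (0.20 ± 0.10, adjusted p = 0.61), the exercised values all being higher. Values without overlap were found in 1 member above and 2 below (Ltv1 and Ddx21), against 2.54% and 2.27% of all genes.

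The 6 genes that are described in every comparison but the interaction, none of them a small-subunit factor, had estimates from -0.13 to 0.14. Ncl in exercised non-tumour liver was at 214, 194, 168 and 174 CPM (-0.02 ± 0.09), Npm1 at 103, 92.5, 86.2 and 85.0 (-0.03 ± 0.10) and Bop1 at 26.9, 24.3, 24.8 and 23.8 (-0.01 ± 0.10). Each overlapped the non-exercised values given above. Fbl was at 10.9, 9.60, 9.23 and 11.9 CPM (-0.07 ± 0.12), Nop56 at 8.69, 10.7, 12.6 and 8.88 (-0.13 ± 0.14) and Polr1b at 14.4, 12.9, 12.5 and 15.9 (0.14 ± 0.12). Their adjusted p ranged from 0.818 to 0.996. Myc was at 15.2, 8.22, 5.39 and 7.09 CPM, an estimate of 0.86 ± 0.46 that did not pass (adjusted p = 0.653). A p that misses the threshold does not show that the groups are alike.

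In tumours 0 of 39 members passed in either direction by edgeR (0.0208% and 0% of all genes), 2 were higher and 0 lower at an unadjusted p under 0.05, and DESeq2 called 0 (0.423% and 0.125% of all genes). The estimates ran from -0.36 (Rrp12) to 0.27 (Rrs1). Rrs1, an assembly factor of the large-subunit central particle, was at 13.3, 14.5, 14.5 and 11.7 CPM in non-exercised and at 13.7, 15, 17.4 and 18.9 in exercised tumours (0.27 ± 0.12, adjusted p = 0.562), so the ranges overlapped. Gnl3 was at 28.0, 30.9, 28.4 and 28.3 CPM against 38.7, 33.4, 29.7 and 34.4 (0.23 ± 0.10, adjusted p = 0.541), and 1 exercised value fell within the non-exercised range. No member had groups without overlap (2.27% of all genes above and 1.48% below). Rrp12 had the widest error of all members, its exercised tumours spreading from 3.60 to 8.80 CPM.

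The genes followed in every comparison but the interaction come next. Ncl in tumours was at 187, 209, 188 and 165 CPM without and 201, 186, 170 and 182 with exercise (-0.02 ± 0.09). Npm1 was at 116, 114, 105 and 98.3 CPM against 125, 98.3, 93.8 and 95.5 (-0.07 ± 0.10). Bop1 was at 29.6, 25.6, 23.5 and 21.9 CPM against 23.2, 27.0, 21.6 and 27.3 (-0.02 ± 0.10). The ranges overlapped for each of these genes. For Npm1 the exercised values ran from 93.8 to 125 CPM, past both ends of the non-exercised range. Fbl was at 8.26, 10.4, 10.4 and 8.89 CPM against 11.2, 9.99, 9.36 and 9.74 (0.09 ± 0.12). Nop56 was at 14.8, 14.7, 14 and 12.4 CPM against 15.4, 13, 13.1 and 12.9 (-0.04 ± 0.14), and Polr1b at 12.9, 14.4, 12.4 and 12.2 against 12.0, 12.3, 13.5 and 15.7 (0.05 ± 0.12). None of these estimates passed, and neither did that of Myc (3.65, 8.52, 9.01 and 5.43 CPM against 12.3, 11.8, 6.71 and 9.85; 0.60 ± 0.45, adjusted p = 0.74).

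The interaction, which asks whether exercise acted differently in tumour and non-tumour pieces, was called for 0 members in either direction by edgeR (0% of all genes), with 0 at an unadjusted p under 0.05 and 0 by DESeq2. Estimates ran from -0.34 (Rrp1b, 0.18 SE) to 0.21 (Ppan). Of the further polymerase I (17), snoRNP (12), small-subunit (47), large-subunit (45) and ribosomal protein (78) genes edgeR likewise called 0 in each of these 3 comparisons. DESeq2 called 1 polymerase I gene and 1 small-subunit gene higher in non-tumour liver and 0 otherwise. At an unadjusted p under 0.05 edgeR had 1, 0, 3, 0 and 0 higher and 0 lower in non-tumour liver, 1, 1, 4, 0 and 0 higher and 0, 0, 0, 1 and 0 lower in tumours, and 0 for the interaction. Riok2, which fell on the high-fat diet, was at 0.32 ± 0.08 with exercise in non-tumour liver, and Taf1d at 0.59 ± 0.14 (adjusted p = 0.174 for both). The genes of G2 phase and mitosis were estimated lower in exercised tumours in 25 of 25 cases (median -0.90), but 0 passed by edgeR (15 lower at an unadjusted p under 0.05; 1 lower by DESeq2).

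Tumours were compared with non-tumour pieces in each arm, and here the members split. In non-exercised mice 6 of 39 rose and 2 fell, where 18% and 17.8% of all genes were called; in exercised mice 9 rose and 1 fell, where 18.6% and 16% were called. The members' median was 0.08 in the first arm and 0.12 in the second, and that of all genes -0.01 and 0.01. The counts of higher members are near the share of all genes, and those of lower members are below it. DESeq2 gave 6 higher and 2 lower (20.4% and 17.5% of all genes), and 9 higher and 1 lower (19.2% and 17.5%). Called higher in both arms were 5 genes (Nop58, Gar1, Polr1a, Ppan and Tsr1), which are 5 of the 6 and 5 of the 9, and called lower in both was Rrs1. Values without overlap were found in 5 members above and 2 below in non-exercised mice (16.5% and 18.2% of all genes) and in 9 above and 0 below in exercised mice (14.6% and 13.9%).

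With the mouse as a block, in a fit of only the 2 groups compared, the counts were 3 higher and 1 lower in non-exercised mice. In exercised mice they were 6 higher and 1 lower. Of all genes 1764 of 13813 were higher and 1754 lower in the first arm, and 2374 of 13614 higher and 1890 lower in the second. Calls not made in that fit were Gar1, Ppan, Rrp1b and Nop16 in the first arm (adjusted p = 0.0723, 0.0613, 0.113 and 0.0814) and Mybbp1a, Nop56 and Noc2l in the second (0.0536, 0.0608 and 0.116). Leaving out the other groups was part of this loss: the same fit without the block made 5 of the 8 and 8 of the 10 calls, and of the genes named it kept Gar1 and Mybbp1a. Nop58, Tsr1, Polr1a and Rrs1 passed with and without the block in both arms. Library totals in place of TMM factors moved the median of all genes by -0.11 and -0.13. The member counts were then 4 higher and 4 lower, and 3 higher and 2 lower. Of all 14428 genes 1794 were higher and 2965 lower, and 1831 higher and 3027 lower.

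Nop58 rose most. In non-exercised mice its tumours stood at 41.1, 43.9, 30.8 and 33.5 CPM against 26.7, 20.6, 22.6 and 21.8 in non-tumour pieces, 62.8% higher (log2 0.70 ± 0.13, adjusted p = 0.00075). In exercised mice the values were 43.3, 38.7, 29.4 and 34.8 against 23.9, 19.6, 22.8 and 22.3, 64.9% higher (0.72 ± 0.13, adjusted p = 0.000822). All tumours exceeded all non-tumour pieces of their arm, and tumour library 3 was the lowest tumour in both arms, as it was for Tsr1, Polr1a and Ppan. The other 7 snoRNP proteins were divided. Gar1, a box H/ACA core protein, was at 8.82, 8.88, 7.53 and 5.74 CPM in non-exercised tumours against 5.05, 3.91, 6.2 and 5.03 (0.61 ± 0.18, adjusted p = 0.0114), with tumour 4 inside the non-tumour range. In exercised mice it was at 7.74, 8.79, 6.51 and 8.01 CPM against 4.68, 5.22, 5.50 and 5.36 without overlap (0.58 ± 0.18, adjusted p = 0.0171). Nop56 in exercised mice was at 15.4, 13, 13.1 and 12.9 CPM in tumours against 8.69, 10.7, 12.6 and 8.88 (0.41 ± 0.14, adjusted p = 0.033). Tumour and non-tumour values of Nop56 did not overlap in either arm, but in non-exercised mice the test was not passed (0.32 ± 0.14, adjusted p = 0.0831). Fbl was at -0.21 ± 0.12 and -0.05 ± 0.12 and did not pass. Nhp2 and Dkc1 were estimated lower in non-exercised tumours, at -0.27 ± 0.10 and -0.20 ± 0.08 (adjusted p = 0.0518 and 0.0652). Nhp2 values did not overlap, and with library totals both were called lower (adjusted p = 0.021 and 0.0381). In exercised mice neither passed.

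Polr1a was the polymerase I member that rose. Its tumours stood at 21.1, 22.5, 18.7 and 20.7 CPM against 14.2, 16.4, 16.2 and 14.5 without exercise (0.44 ± 0.10, adjusted p = 0.00248) and at 22.0, 23.0, 19.5 and 21.4 against 17, 17.5, 16.8 and 19.3 with it (0.28 ± 0.10, adjusted p = 0.0325). The groups did not overlap in either arm, although in exercised mice the call was lost in 6 of 8 fits without 1 library. Polr1b, its partner in the enzyme, was at 0.04 ± 0.12 and -0.06 ± 0.12, so that the catalytic subunit and its partner had different estimates in tumours while both fell on the high-fat diet. That difference between the genes was not tested.

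Of the small-subunit factors Tsr1 rose in both arms. It was at 32.1, 28.6, 19.7 and 23.2 CPM in non-exercised tumours against 17.6, 17.9, 17.4 and 17.7 (0.55 ± 0.13, adjusted p = 0.00279) and at 23.5, 24.0, 21 and 28.8 in exercised tumours against 17, 17.4, 17.2 and 17.7 (0.49 ± 0.13, adjusted p = 0.00708). The 8 non-tumour values lay within a range of 1 CPM, and every tumour was above them. The other 9 small-subunit members did not pass in either arm.

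Large-subunit factors went both ways. Ppan was at 13.7, 15, 10.1 and 12.0 CPM in non-exercised tumours against 10.8, 10.2, 9.33 and 8.71 (0.38 ± 0.12, adjusted p = 0.0224), with tumour 3 within the non-tumour range. In exercised mice it was at 14.8, 13.4, 12.7 and 14.2 CPM against 8.81, 8.32, 10.4 and 9.04 (0.59 ± 0.12, adjusted p = 0.00181), without overlap. Rrs1, by contrast, was at 13.3, 14.5, 14.5 and 11.7 CPM in non-exercised tumours against 20.1, 19.1, 20.7 and 19.4 (-0.56 ± 0.12, adjusted p = 0.00194). Exercised tumours were at 13.7, 15, 17.4 and 18.9 CPM against 26.1, 17.8, 23.9 and 21.6 (-0.46 ± 0.12, adjusted p = 0.00724); tumour 4 was above the lowest non-tumour piece. Rrs1 was thus the only member called lower in all 3 comparisons with calls, the diet one included, which shares the non-exercised non-tumour libraries with the first tumour comparison. Rrp1b rose by 31.2% and Nop16 fell by 16.5% in non-exercised tumours (adjusted p = 0.0238 and 0.0293); in exercised mice they were at 0.05 and -0.20 and did not pass, and the interaction was not called for either. Bop1 was level (0.00 ± 0.10 and -0.01 ± 0.10).

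Among the remaining nucleolar proteins Mybbp1a was at 64.9, 57.5, 54.8 and 60.5 CPM in exercised tumours against 43.1, 50.7, 51.9 and 45.6 (0.31 ± 0.09, adjusted p = 0.0132). Ddx21, at 47.7, 43.5, 44.1 and 50.7 CPM against 36.9, 40, 37.3 and 37.0, also rose without overlap (0.30 ± 0.09, adjusted p = 0.0174). Neither passed in non-exercised mice. Ncl was at -0.02 ± 0.09 in both arms, and Npm1 at 0.22 ± 0.10 and 0.17 ± 0.10 (adjusted p = 0.114 and 0.216). Of the calls, 5 of 8 in non-exercised and 4 of 10 in exercised mice were made in each of the 8 fits without 1 library. In exercised mice the count of higher members fell from 9 to 4 without non-tumour library 1. In non-exercised mice the count of lower members was 4 without non-tumour library 4, and 1 without non-tumour library 1 or 3 or tumour library 1 or 4.

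**Figure D4:**
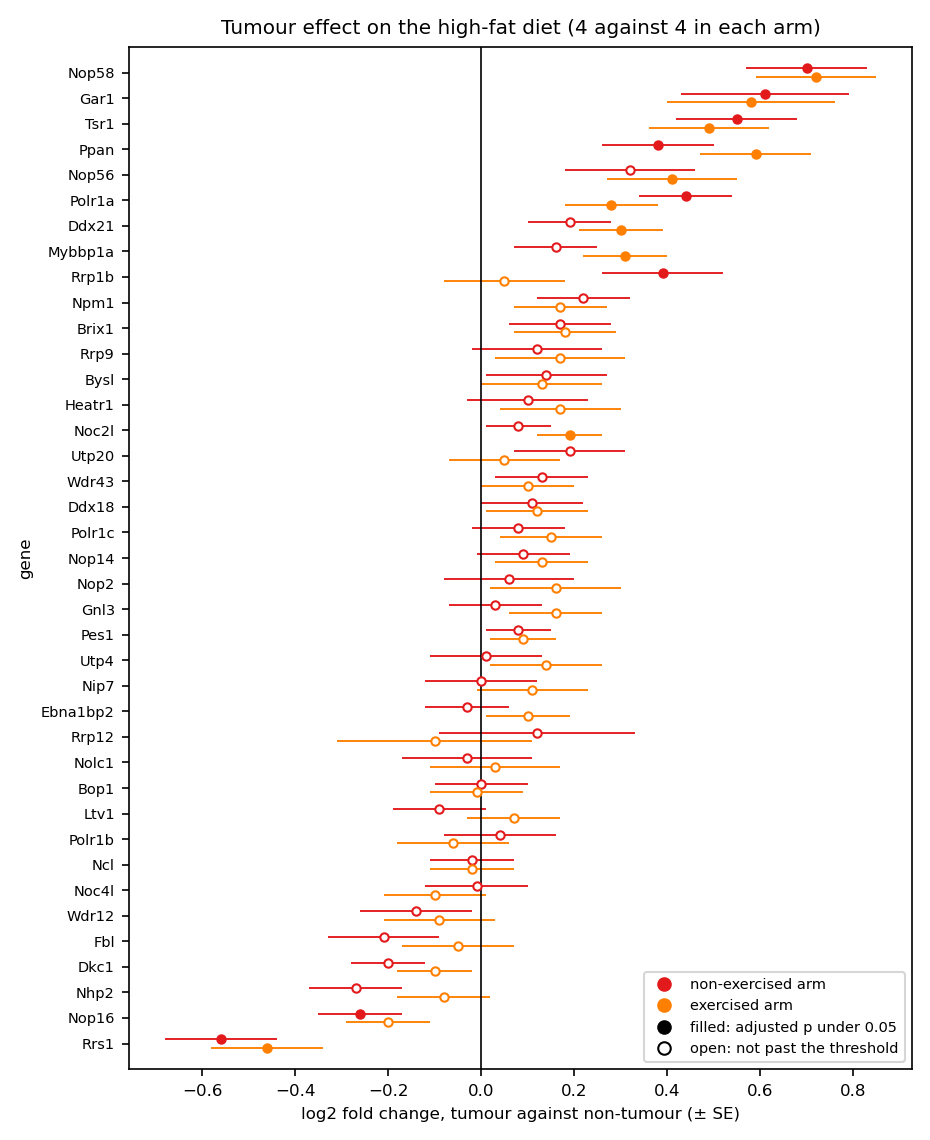
Log2 fold change of each of the 39 genes in tumour against non-tumour pieces on the high-fat diet, in non-exercised (red) and exercised (orange) mice, with SE bars (4 libraries against 4, edgeR). Filled points passed an adjusted p of 0.05; Nop58, Gar1, Tsr1, Ppan and Polr1a are filled to the right and Rrs1 to the left in both arms.

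The wider pathway was also mixed in tumours. With library totals fewer of it were called higher in every list but the snoRNP genes of non-exercised mice (1 with either scaling). Fewer of all genes were called higher with library totals as well, 1794 against 2596 and 1831 against 2682. Of 47 further small-subunit factors 1 rose and 11 fell in non-exercised and 2 rose and 5 fell in exercised mice, Aatf (-0.47) and Nob1 (0.54) being examples of each. Of 45 further large-subunit factors 6 rose and 4 fell, and 5 rose and 4 fell; the maturation factor Sbds fell in both arms (-0.56 and -0.36) and Tex10 rose in both (0.48 and 0.41). Further snoRNP genes gave 1 higher and 2 lower, and 2 higher and 2 lower of 12, with Pih1d1 lower (-0.52 and -0.40) and Rpap3 higher (0.59 and 0.48) in both arms. Further polymerase I genes gave 3 higher and 1 lower, and 3 higher and 0 lower of 17, among them Taf1c (0.61 and 0.56). Of 78 ribosomal protein genes 19 rose without and 53 with exercise, and 0 fell in either arm (medians 0.24 and 0.39); with library totals 8 and 22 rose and 1 fell in each. Rps6 was at 0.53 and 0.59. Copies make these counts uncertain, and the 2 counts do not show that the arms differ, since the interaction was called for 0 of the 78.

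Myc did not pass in tumours, at 0.44 ± 0.46 without and 0.18 ± 0.45 with exercise (adjusted p = 0.491 and 0.78). Without exercised non-tumour library 3 the second value was -0.02 (adjusted p = 0.982). Mycn rose in non-exercised tumours (1.55) and Mycl in exercised tumours (0.56). Of the Myc antagonists, Mxi1 fell in both arms (-0.77 and -0.65), and Mxd3 rose in both (2.55 and 2.44), from means of 0.381 and 0.229 CPM in non-tumour pieces. Of 27 Myc targets outside the nucleolus 3 rose and 6 fell, and 2 rose and 7 fell, with the mitochondrial folate enzyme Mthfd2 higher (1.59 and 1.46) and Phb1 lower (-0.47 and -0.48). All 25 genes of G2 phase and mitosis rose in both arms, by a median of 2.73 and 2.17.

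Cell type markers moved with the tumour contrast. The 10 hepatocyte markers summed to 111499 to 233181 CPM in non-exercised tumours (62568 to 89787 in non-tumour pieces) and to 139097 to 243717 in exercised tumours (85163 to 101884). The list itself was split, with 4 called higher and 3 lower without exercise and 4 higher and 2 lower with it: Alb (1.40 and 1.25) and Apoa1 (1.64 and 1.62) rose, while Pck1 fell without exercise (-1.61) and Cps1 with it (-0.90). The 6 cholangiocyte and progenitor markers summed to 372 to 1469 CPM against 45.4 to 180, and to 103 to 1451 against 42.2 to 120. Most of that sum was Spp1, which rose by 3.13 and 3.35, while 4 of the 6 estimates were below 0 in non-exercised mice and Krt19 fell there (-1.12). The 13 macrophage markers summed to 152 to 638 CPM against 406 to 539, and to 178 to 379 against 454 to 545, with 3 and 4 of the 13 called lower and 0 higher. None of these markers was at 0 in all libraries of a group, and their part in the members' differences was not tested.

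The group means of the 16 members that fell on the high-fat diet are set against the range of the 4 normal-diet libraries, as a description with no test, since the 16 were chosen against those libraries. In exercised non-tumour liver 15 of the 16 means lay below that range and 1 (Rrp1b) within it. In non-exercised tumours 11 lay below it and 5 within it (Nop58, Polr1a, Ppan, Tsr1 and Rrp1b), and in exercised tumours 10 below and 6 within (the same 5 genes and Noc2l). Nop58 had means of 35.9 on the normal diet, 22.9 and 22.2 in non-tumour liver without and with exercise, and 37.4 and 36.5 CPM in tumours, with SDs of 1.81 to 6.19 (n = 4). Nolc1, which had fallen as much, stayed low, at 40.3, 26.0, 24.1, 25.5 and 24.5 CPM in that order. Nop16 was lowest in tumours, at 34.8, 22.6, 22.8, 18.8 and 19.8 CPM, as was Rrs1, at 27.0, 19.8, 22.3, 13.5 and 16.2.

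Set against the normal diet directly, 18 members lay wholly below all normal-diet libraries in exercised non-tumour liver (11.5% of all genes), 10 in non-exercised tumours (24.9%) and 9 in exercised tumours (20.3%). Above them lay 1 (11.6%), 1 (24.3%) and 0 (21.9%), the 1 gene being Utp20 in both cases. The mean log2 CPM over the 39 members was 4.52 ± 0.15 (SD, n = 4) on the normal diet, 4.22 ± 0.07 and 4.20 ± 0.06 in non-exercised and exercised non-tumour liver, and 4.31 ± 0.11 and 4.33 ± 0.07 in the tumours. That of the ribosomal protein genes was 6.70 ± 0.04, 6.40 ± 0.18, 6.35 ± 0.13, 6.66 ± 0.11 and 6.72 ± 0.26 in the same order.

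**Figure D5:**
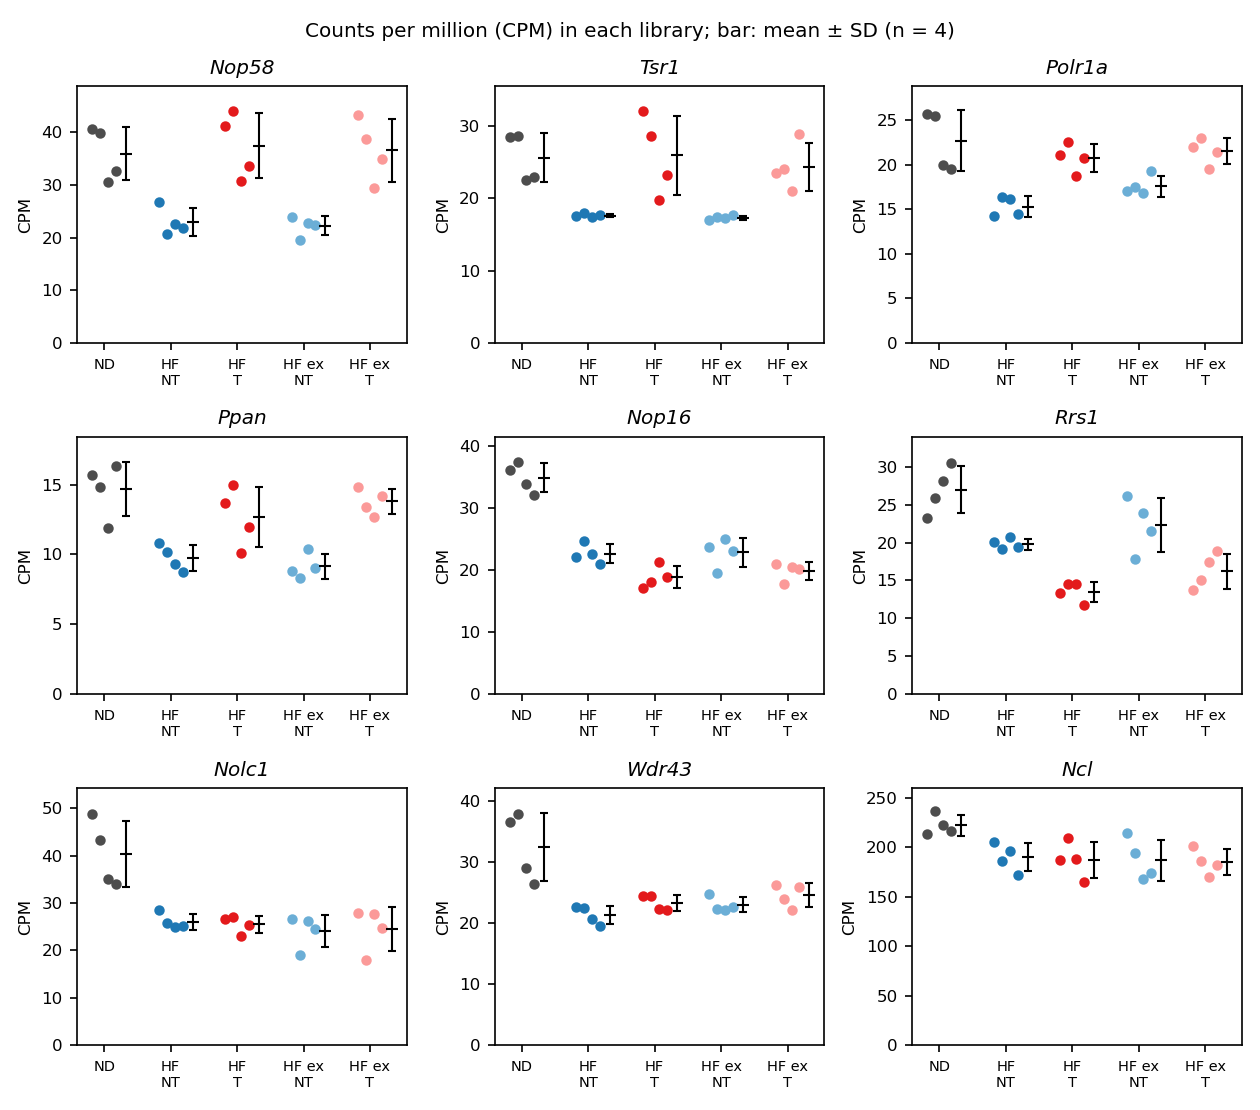
CPM of 9 members in each of the 20 libraries (points; ND, normal diet; HF, high-fat diet; NT, non-tumour; T, tumour; ex, exercised), with the group mean ± SD (n = 4) as the bar beside them; axes start at 0. Nop58, Tsr1, Polr1a and Ppan are low in both non-tumour high-fat groups and higher in tumours, Nop16 and Rrs1 are lowest in tumours, and Nolc1, Wdr43 and Ncl stay below the normal-diet mean in all 4 high-fat groups.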

How the data were processed

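The authors deposited raw read counts per gene for 20 libraries, with the exon length of each gene in bases, made with featureCounts of Subread 2.0.5 on the GENCODE vM27 annotation with reverse-strand counting, per the file headers. Trim Galore 0.6.10, STAR 2.7.11a and the build GRCm39 are named in the submitters' processing notes. The headers name no option for reads that match several places.

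Genes were kept by filterByExpr (minimum count 10, minimum total 15), scaled by TMM and fitted with the quasi-likelihood model of edgeR 4.0.16 (R 4.3.3, robust) to 5 group means over 20 libraries, with 15 residual degrees of freedom. Calls are Benjamini-Hochberg adjusted p under 0.05 over the 14428 genes tested, two-sided. The SE is the size of the log2 fold change divided by the root of F. CPM uses TMM-scaled totals; log2 CPM has a prior count of 2. The procedure was also run on counts simulated from a model like its own with few genes changed. That run cannot show how the scaling fares where many genes change.

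The members and gene lists were chosen with earlier results of these data known. Ncl, Npm1, Fbl, Nop56, Bop1 and Polr1b were described in every comparison but the interaction. With them came up to 6 called members of smallest p (or the 2 of smallest p where none was called). For the interaction only the members with the lowest and the highest estimate were named. Any other member could be named with its values. Of each other list at most 4 called genes with the smallest p were eligible for naming. Alternatives were RLE, upper-quartile and total-count scaling, DESeq2 1.42.0, no filter, only the groups compared, a block in that fit and leaving out each library. Libraries of a group differed by far more than sampling noise (chi-square per gene at least 9.95). Pairing rests on the titles' mouse numbers; deviations of same-numbered tumour and non-tumour pieces correlated at -0.083 to 0.213 without and 0.075 to 0.441 with exercise, and those of same-numbered tumours of the 2 arms, which are different mice, at 0.028 to 0.573.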

Additional observations from a re-analysis of the deposited data

Results flagged for a closer look

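In 13 of 200 groups of 4 (39 members and Myc in 5 groups) 1 library stood far from the other 3 by Dixon's test, where chance gives about 1 in 20. Exercised tumour library 1 was the high one for Polr1c (21.6 CPM, others 18.3 to 18.5), Nop56 (15.4, others 12.9 to 13.1) and Npm1 (125, others 93.8 to 98.3). Exercised tumour library 4 was high for Bysl (21, others 16.6 to 17.2). Normal-diet library 2 was high for Npm1 (119, others 103 to 105) and Ebna1bp2 (31.1, others 26.8 to 27.0).

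Among non-exercised tumours library 4 was low for Noc4l (8.06 CPM, others 10.0 to 10.3) and Nip7 (8.53, others 10.5 to 10.8), and library 2 high for Gnl3 (30.9, others 28.0 to 28.4). In exercised non-tumour liver library 2 was high for Ddx21 (40, others 36.9 to 37.3) and low for Utp20 (23.1, others 25.4 to 25.6), and library 1 high for Nhp2 (23.6, others 22.2 to 22.3). Non-exercised non-tumour library 3 was high for Pes1 (31.5, others 28.5 to 28.9).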

How the results depend on the processing

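On the high-fat diet the count of lower members was 12 to 19 with RLE or upper-quartile factors, DESeq2, no filter, only the groups compared or a replicate block (13 with the block, which changed no call in the exercise and interaction comparisons, at 0), 8 with library totals, and 13 to 18 when 1 library was left out. Higher members numbered 1 with upper-quartile factors and 2 with library totals, and 0 otherwise; Npm1 turned from -0.21 to 0.02 (adjusted p = 0.895) with library totals. In non-exercised tumours the replicate block gave 3 higher and 1 lower; lower members numbered 4 with library totals, 1 without the filter and 1 to 4 when 1 library was left out, and higher members 4 to 7. In exercised tumours higher members numbered 3 with library totals, 5 without the filter and 4 to 9 when 1 library was left out (4 without exercised non-tumour library 1); lower members numbered 2 with library totals and 1 to 2 when 1 library was left out. Myc there ranged from -0.02 (adjusted p = 0.982, without exercised non-tumour library 3) to 0.55 when 1 library was left out. Exercise and interaction gave 0 calls under every alternative run. The counts over all genes also moved between settings, as given above in part. The cause of these shifts was not tested. In the diet and exercise comparisons the replicate block joined different mice that share only a number. The lowest count behind a member value was 63 (Rrp12).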
